A study of Saccharomyces cerevisiae with 14 samples.

Results

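The lower part of glycolysis in the budding yeast Saccharomyces cerevisiae was followed through 10 genes of the 6470 features in the count table, chosen by name and locus tag for their place in the pathway and not by any measured value. They are FBA1 (YKL060C), TDH1 (YJL052W), TDH2 (YJR009C), TDH3 (YGR192C), PGK1 (YCR012W), GPM1 (YKL152C), ENO1 (YGR254W), ENO2 (YHR174W), CDC19 (YAL038W) and PYK2 (YOR347C). All 10 had enough reads to be tested. RNA was measured in 14 libraries from cultures in mid exponential or late stationary phase, a comparison that the series places in work on metformin, retrotransposons and chronological aging, the survival of cells that no longer divide. Metformin is a biguanide drug used against type 2 diabetes. The groups were exponential cultures with no metformin (n = 4), exponential cultures with 50 mM metformin (n = 4), stationary cultures with no metformin (n = 3) and stationary cultures with 50 mM metformin (n = 3).

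All groups shared the strain, a haploid of mating type MATa that carries LEU2 and the alleles his3D1, ura3D0 and lyp1D. The strain also carries his3D::kanMX4, a marker at its can1D locus in which the STE2 promoter drives SpHIS5, and PDC1 tagged with RFP and CaURA3MX4. Precultures were started from single colonies in synthetic complete medium at pH 4 and 30 °C and kept for 24 h, and were then diluted into the same medium with or without the drug. No label ties a replicate to its own culture, so each p-value rests on the spread between libraries, and that spread may be technical.

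Glycolysis turns glucose into pyruvate. FBA1 encodes aldolase, which splits fructose bisphosphate into triose phosphates; glyceraldehyde-3-phosphate dehydrogenase (TDH1, TDH2, TDH3), phosphoglycerate kinase (PGK1), phosphoglycerate mutase (GPM1), enolase (ENO1, ENO2) and pyruvate kinase (CDC19, PYK2) then carry the carbon to pyruvate and recover ATP. These steps, except pyruvate kinase, also run backwards in gluconeogenesis, which cells use when glucose is gone and ethanol or other small carbon compounds remain. In yeast growing on glucose these transcripts are among the most abundant of the cell. Most are known to depend on the activators Gcr1 and Rap1, whereas TDH1 is known as the dehydrogenase gene of stressed and non-dividing cells and PYK2 as a glucose-repressed pyruvate kinase.

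The 3 TDH genes and both ENO genes are close copies, and the sequences show which bases let a read be assigned to a single gene. Over their coding sequences TDH2 and TDH3 shared 95.8% of aligned bases, TDH1 and TDH2 90.2%, and TDH1 and TDH3 88.9%. A stretch of 90 coding bases, numbered 46 to 135 from the start codon, is printed 5′ to 3′ on the coding strand from the RefSeq R64 genome. Capitals mark bases that differ from TDH3.
TDH3 (chrVII:883676-883765, minus strand): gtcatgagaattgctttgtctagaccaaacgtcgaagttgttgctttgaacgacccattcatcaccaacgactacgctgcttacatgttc
TDH2 (chrX:454547-454636, minus strand): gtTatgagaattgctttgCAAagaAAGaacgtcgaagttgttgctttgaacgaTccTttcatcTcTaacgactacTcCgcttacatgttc
TDH1 (chrX:338316-338405, plus strand): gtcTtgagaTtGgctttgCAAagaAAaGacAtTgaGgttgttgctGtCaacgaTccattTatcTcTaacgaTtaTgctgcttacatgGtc

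In this stretch TDH2 differed from TDH3 at 13 bases and TDH1 at 21. ENO1 and ENO2 shared 94.8% of aligned bases, and coding bases 277 to 366 are printed in the same way, with capitals where ENO1 differs from ENO2, at 13 bases.
ENO2 (chrVIII:451603-451692, plus strand): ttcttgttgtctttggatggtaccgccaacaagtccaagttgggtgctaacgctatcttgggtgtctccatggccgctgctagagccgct
ENO1 (chrVII:1001203-1001292, plus strand): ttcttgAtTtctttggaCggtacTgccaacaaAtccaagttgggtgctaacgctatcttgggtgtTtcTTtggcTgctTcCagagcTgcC

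The pyruvate kinase genes were further apart, with 67.1% of aligned bases shared between CDC19 and PYK2 and no identical run longer than 14 bases. Of all windows of 100 bases in the coding sequence, 95.4% were found nowhere else in the genome for TDH1, 87.2% for TDH2, 91.8% for TDH3 and 97.3% for each of ENO1 and ENO2. For the other 5 members all such windows were unique. Neither the read length nor the handling of reads with several alignments is known from the labels, so counts of TDH1, TDH2, TDH3, ENO1 and ENO2 carry an uncertainty that those of FBA1, PGK1, GPM1, CDC19 and PYK2 do not. Each member is a single coding exon that overlapped no other annotated feature. TDH1 lies at chrX:338271-339269, TDH2 at chrX:453683-454681, TDH3 at chrVII:882812-883810, ENO1 at chrVII:1000927-1002240 and ENO2 at chrVIII:451327-452640, in R64 coordinates. FBA1 lies at chrXI:326408-327487, PGK1 at chrIII:137746-138996, GPM1 at chrXI:163642-164385, CDC19 at chrI:71786-73288 and PYK2 at chrXV:984942-986462.

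Gene counts came to 43897221 to 59443572 per library. The phases differed in what filled those counts. Features that do not encode protein took up 12.5% to 16% of gene counts in exponential libraries, and 66.7% to 74.9% in stationary ones, and the signal recognition particle RNA SCR1 alone took up 5.9% to 7.41% and 30.6% to 37.9%. Reads with several alignments made up 6.11% to 6.84% of counted reads in exponential and 1.12% to 1.4% in stationary libraries. Levels are therefore given as CPM, which are counts scaled to a common library size, after TMM scaling, which sets libraries level on the bulk of features. All 5 markers of stationary phase (SPG1, SPG4, HSP12, HSP26, SNZ1) were higher in stationary libraries at both doses. Of the mating type markers, STE2 had 1105 to 27113 counts across libraries and the alpha-pheromone gene MF(ALPHA)1 had 13 to 85. All 4 MATa markers (MFA1, MFA2, STE2, BAR1) were lower and all 3 alpha markers (MF(ALPHA)1, MF(ALPHA)2, STE3) higher in stationary cultures at both doses. Without metformin the alpha marker STE3 averaged 3.72 CPM in exponential and 15.3 CPM in stationary cultures, against 109 and 16.3 CPM for BAR1. URA3 had 0 counts in every library, while CAN1, labelled as deleted, had 67 to 1877.

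Stationary cultures held far less of the lower glycolysis transcripts than exponential cultures. The 10 members together made up 6.8%, 6.54%, 6.8% and 6.4% of gene counts in the exponential libraries without metformin and 0.372%, 0.328% and 0.461% in the stationary ones. With metformin these shares were 6.86%, 6.58%, 6.78% and 6.39% against 0.322%, 0.421% and 0.325%. The groups were far apart and no library lay in between. The means without metformin were 6.64% ± 0.199 (SD, n = 4) and 0.387% ± 0.068 (SD, n = 3). An exact permutation test, two-sided, gave p = 0.0286, the smallest value that 4 against 3 libraries allow, and 0.0571 after Benjamini-Hochberg adjustment over 4 comparisons. On the TMM scale, which takes out much of the growth of the non-coding share, the means were 4.77% ± 0.181 and 0.575% ± 0.101 of the effective library. Bulk RNA gives proportions, so fewer cells that express a gene and less of its RNA per cell cannot be told apart.

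Gene by gene, edgeR's quasi-likelihood test across 6097 features with Benjamini-Hochberg adjustment (threshold 0.05) called 8 members lower in stationary cultures without metformin, against 42.2% of all features called lower. It called PYK2 higher, against 42.4% of all features, and made no call for TDH1. With metformin the split was the same, 8 lower, 1 higher and 1 not called, against 41.8% of all features called lower and 40.8% called higher. The median log2 fold change of the 10 members was -3.33 without and -3.38 with metformin, while the median over all tested features was 0.02 and -0.01. The same 8 members lay lower with no overlap between groups at either dose, as did 41.9% of all features without and 40.6% with metformin. The comparisons at 0 and 50 mM use different libraries in the same fit, and the 8 were FBA1, TDH2, TDH3, PGK1, GPM1, ENO1, ENO2 and CDC19 each time.

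**Figure D1:**
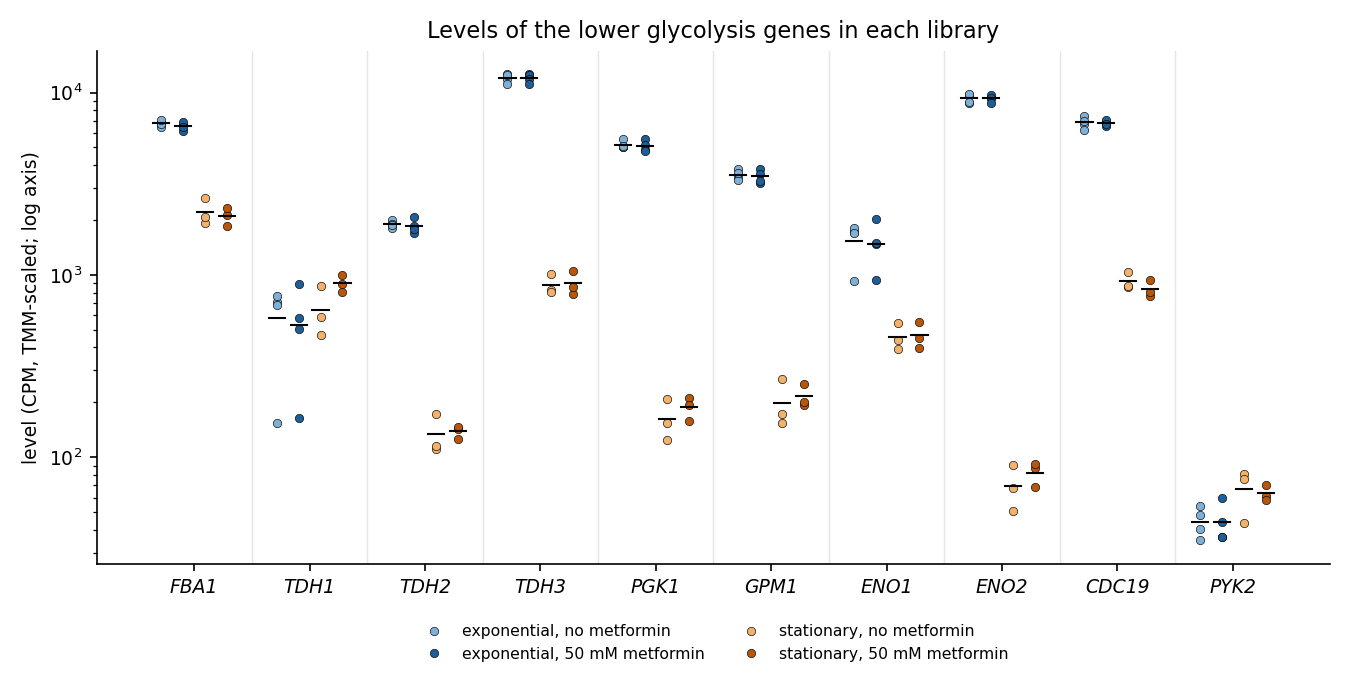
Level of each of the 10 genes in every library, as TMM-scaled CPM on a log axis, with points for libraries and bars for group means. Exponential libraries are blue and stationary libraries orange, with darker shades for 50 mM metformin; ENO2 moves from 8731 CPM or more to 91.3 CPM or less, while TDH1 and PYK2 overlap between phases.

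FBA1, the aldolase gene at the entry of the lower pathway, showed the smallest fall among the highly expressed members. Its level was 6839, 6504, 6690 and 7060 CPM in exponential libraries without metformin and 1927, 2064 and 2653 CPM in stationary ones. With metformin it was 6672, 6882, 6149 and 6474 CPM against 1847, 2141 and 2327 CPM. Every exponential library lay above every stationary one, and the level was 3.06-fold lower in stationary phase without metformin (log2 fold change -1.61, SE 0.13, edgeR adjusted p = 1.74e-08). With metformin the log2 fold change was -1.64 (SE 0.13). Per kilobase of coding sequence FBA1 stood 8th of 6014 protein-coding genes in exponential and 25th in stationary cultures without metformin, and it was the highest of the 10 in the stationary cultures.

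TDH3 encodes the main glyceraldehyde-3-phosphate dehydrogenase and was the highest of the 10 in exponential cultures. It read 12580, 11820, 12450 and 11150 CPM there without metformin and 829, 808 and 1011 CPM in stationary cultures. The corresponding values with metformin were 12630, 12500, 11870 and 11150 CPM and 781, 862 and 1049 CPM. The phases were separated by a wide gap, and the fall was 13.6-fold without metformin (log2 fold change -3.76, SE 0.14, edgeR adjusted p = 7.22e-12). TDH2, the second dehydrogenase gene and the closer copy of TDH3 in sequence, fell alongside it. It read 1996, 1902, 1819 and 1879 CPM in exponential and 111, 116 and 173 CPM in stationary cultures without metformin. With metformin it read 2085, 1851, 1688 and 1786 CPM and 126, 143 and 147 CPM. Again no library crossed between phases, and the log2 fold change was -3.83 (SE 0.16) without and -3.74 (SE 0.16) with metformin.

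TDH1, the third dehydrogenase gene, did not follow its copies. Its level was 714, 769, 154 and 680 CPM in exponential cultures without metformin and 466, 591 and 866 CPM in stationary ones. With metformin it was 886, 502, 164 and 582 CPM and 803, 895 and 996 CPM. The phases overlapped at both doses, and replicate 3 of each exponential group stood far below its group. The log2 fold change was 0.15 (SE 0.51, 95% interval -0.94 to 1.23, edgeR adjusted p = 0.793) without metformin. With metformin it was 0.75 (SE 0.5, 95% interval -0.33 to 1.83, edgeR adjusted p = 0.179). Without both replicates 3, an alternative chosen after seeing the data, the log2 fold change without metformin turned to -0.16 (edgeR adjusted p = 0.519) and with metformin it was 0.46 (edgeR adjusted p = 0.078). These intervals admit both a rise and a fall.

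PGK1 encodes phosphoglycerate kinase, the first ATP-forming step. Its transcript stood at 5553, 5003, 5022 and 5086 CPM in exponential and 124, 153 and 209 CPM in stationary cultures without metformin. With metformin it stood at 5541, 5147, 4820 and 4797 CPM and 157, 211 and 194 CPM. The phases were fully apart, with a 31.8-fold fall (log2 fold change -4.99, SE 0.19, edgeR adjusted p = 7.74e-12) without and a 27-fold fall with metformin. GPM1, the main phosphoglycerate mutase, behaved much the same. Its level was 3796, 3432, 3334 and 3631 CPM in exponential and 154, 172 and 268 CPM in stationary cultures without metformin. With metformin it was 3814, 3584, 3190 and 3281 CPM and 194, 202 and 251 CPM. No library crossed between the phases, and the log2 fold change was -4.16 (SE 0.2) without and -4.01 (SE 0.19) with metformin.

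The enolase genes parted. ENO2, the enolase of fermenting cells, read 9653, 8739, 9831 and 8883 CPM in exponential cultures without metformin and 50.8, 67.6 and 90.2 CPM in stationary ones. With metformin it read 9391, 9744, 9305 and 8731 CPM and 68.4, 87.2 and 91.3 CPM. The fall was 133-fold without metformin (log2 fold change -7.06, SE 0.22, edgeR adjusted p = 1.62e-12) and 113-fold with it (log2 fold change -6.82, SE 0.22). At each dose only 1 of the 6097 features fell further, the pyruvate decarboxylase gene PDC5. ENO1, known as the more evenly expressed enolase, fell less. It stood at 1714, 1818, 930 and 1693 CPM in exponential and 392, 437 and 543 CPM in stationary cultures without metformin. With metformin it stood at 2023, 1474, 934 and 1501 CPM and 396, 451 and 549 CPM. The phases did not overlap, although both replicates 3 were the lowest of the exponential libraries, and the log2 fold change was -1.75 (SE 0.27, edgeR adjusted p = 2.51e-05) without and -1.67 (SE 0.27) with metformin. Without both replicates 3 these values were -1.92 and -1.84.

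CDC19 encodes the main pyruvate kinase, which closes the pathway. It read 7442, 6750, 7000 and 6221 CPM in exponential and 863, 865 and 1035 CPM in stationary cultures without metformin. With metformin it read 6918, 7056, 6594 and 6745 CPM and 770, 803 and 939 CPM. The phases were apart, and the fall was 7.44-fold without (log2 fold change -2.9, SE 0.12) and 8.15-fold with metformin (log2 fold change -3.03, SE 0.12). PYK2, the minor pyruvate kinase, was a low transcript in all libraries. Its level was 48.2, 53.7, 34.9 and 40.3 CPM in exponential and 81, 75.5 and 43.3 CPM in stationary cultures without metformin, and the phases overlapped through stationary replicate 3. With metformin it was 59.8, 36.6, 36.6 and 43.9 CPM and 61.2, 70.8 and 58.1 CPM, with 1 exponential library inside the stationary range. PYK2 was called higher at log2 fold changes of 0.59 (SE 0.22, edgeR adjusted p = 0.0215) and 0.52 (SE 0.22, edgeR adjusted p = 0.0404). The call was lost without any of exponential replicates 3 or 4 or stationary replicates 1 or 2 in the untreated groups (edgeR adjusted p from 0.0511 to 0.127). In the metformin groups it was lost without any of exponential replicates 2, 3 or 4 or any stationary replicate (edgeR adjusted p from 0.0525 to 0.138), and also without both exponential replicates 3 (edgeR adjusted p = 0.0734).

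The directions of TDH1 and PYK2 also turned with the scaling. Scaled by library totals alone, the median of all features moved to -1.02 without and -1.22 with metformin, TDH1 to -0.9 and -0.45 and PYK2 to -0.44 and -0.67. Measured from that median, TDH1 stood at 0.12 and 0.77 and PYK2 at 0.58 and 0.55 on the log2 scale. The 8 falling members were lower under every scaling tried.

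**Figure D2:**
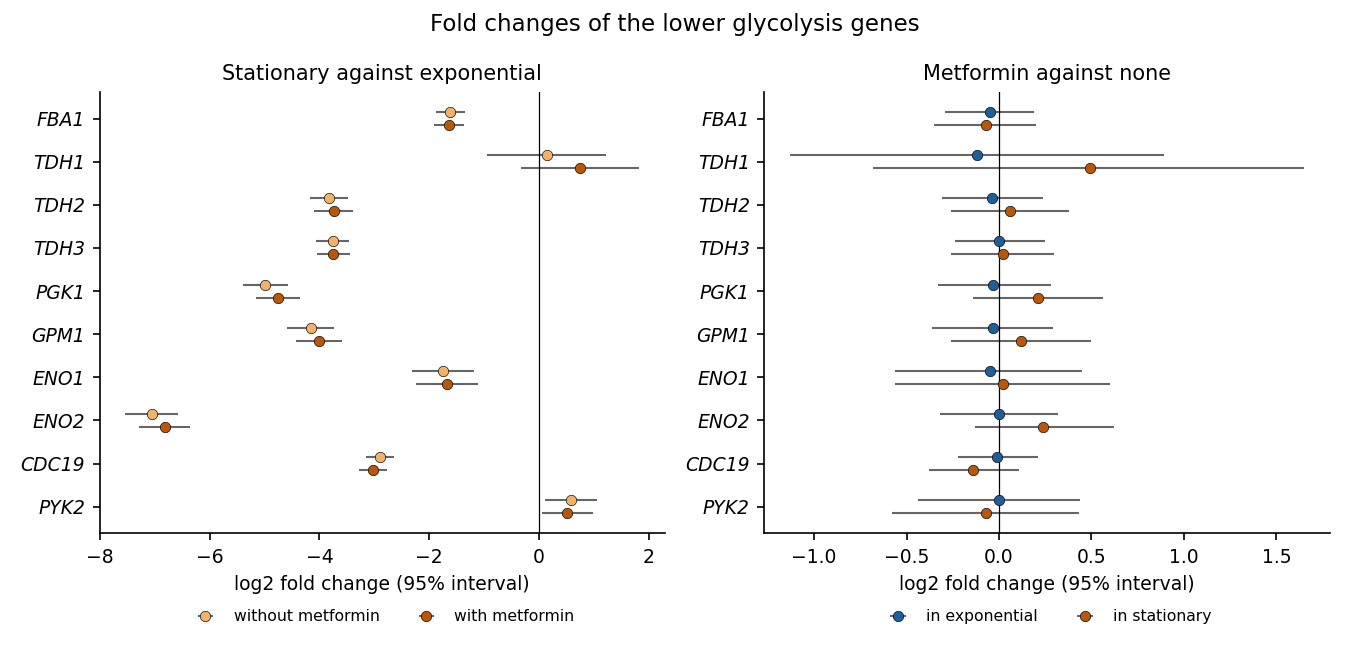
Log2 fold changes of the 10 genes with 95% intervals from the edgeR fit, stationary against exponential on the left and metformin against none on the right, with separate horizontal scales. On the left 8 genes lie well below 0, from -1.61 for FBA1 to -7.06 for ENO2 without metformin; on the right every interval crosses 0.

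Within each enzyme the mixture of gene copies differed between phases. Shares of the counts of a gene family are taken within 1 library and do not depend on scaling between libraries. TDH1 gave 4.67%, 5.31%, 1.07% and 4.96% of the TDH counts in exponential cultures and 33.1%, 39% and 42.2% in stationary cultures without metformin. With metformin it gave 5.68%, 3.38%, 1.2% and 4.31% and then 47%, 47.1% and 45.4%. All stationary shares exceeded all exponential shares by a wide margin. The mean share of TDH1 was 4% ± 1.97 (SD, n = 4) and 38.1% ± 4.6 (SD, n = 3) without metformin, and 3.64% ± 1.88 and 46.5% ± 0.913 with it. Without both exponential replicates 3 the difference between phases was 33.1 and 42 percentage points, against 34.1 and 42.9 with them. TDH3 held the larger part in exponential cultures, 82.9% ± 2.33, and 53.9% ± 4.84 in stationary cultures without metformin. With metformin, TDH1 at 46.5% and TDH3 at 46.3% ± 1.36 were level in stationary cultures. TDH2 held 13.1% ± 0.451 and 7.99% ± 0.42 without metformin.

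ENO1 gave 15.1%, 17.2%, 8.64% and 16% of enolase counts in exponential cultures without metformin and 88.5%, 86.6% and 85.8% in stationary ones. With metformin it gave 17.7%, 13.1%, 9.12% and 14.7% and then 85.3%, 83.8% and 85.7%. ENO2 was thus the major enolase transcript in every exponential library and the minor one in every stationary library. PYK2 gave 0.643% ± 0.119 (SD, n = 4) of pyruvate kinase counts in exponential and 6.88% ± 2.49 (SD, n = 3) in stationary cultures without metformin. For each of these 5 shares the exact two-sided permutation test between phases gave p = 0.0286 at either dose, the smallest value possible, and 0.0571 after Benjamini-Hochberg adjustment over 20 comparisons. The TDH shares add up to the whole in each library, so their tests are not independent. The share of reads with several alignments moved with phase as well, as given above, and its part in the TDH and ENO shares was not tested.

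**Figure D3:**
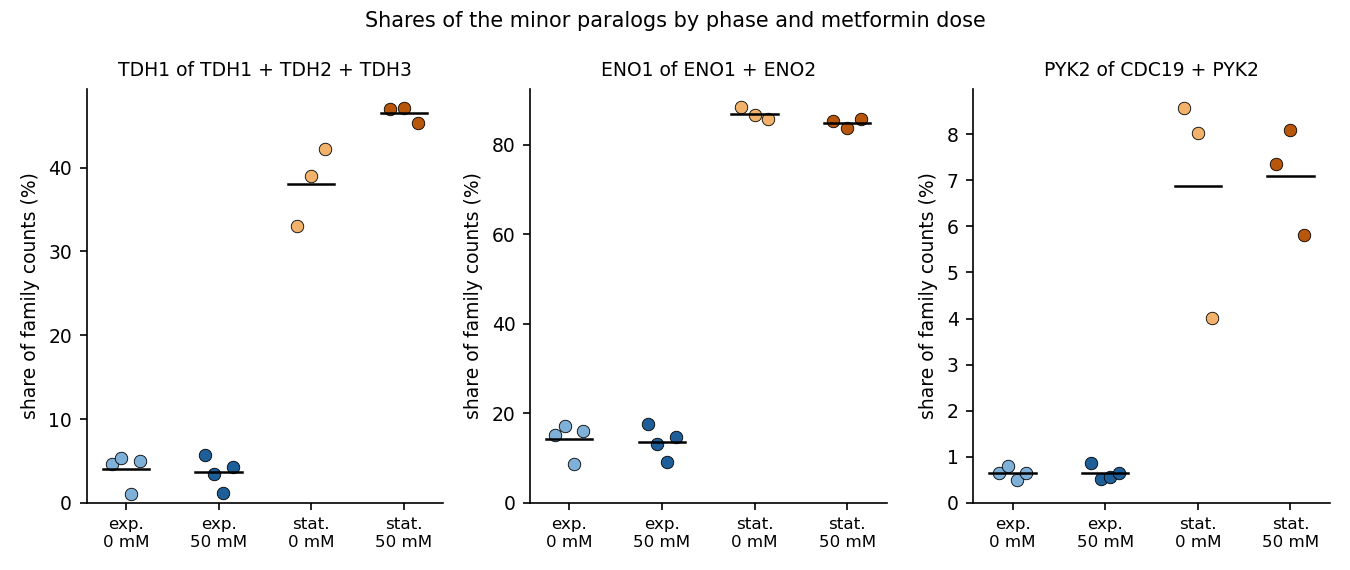
Share of family counts in percent given by TDH1, ENO1 and PYK2 in each library, with bars for group means and a vertical scale of its own in each panel. In each panel all stationary points (orange) lie above all exponential points (blue), and in the TDH1 panel the stationary points with metformin, 45.4% to 47.1%, lie above those without, 33.1% to 42.2%.

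The order of the transcripts per kilobase changed accordingly. In exponential cultures without metformin it ran TDH3 with 12010 ± 656 CPM per kb (SD, n = 4), ENO2 with 7060 ± 415, FBA1 with 6271 ± 218, GPM1 with 4769 ± 277, CDC19 with 4560 ± 339, PGK1 with 4129 ± 208, TDH2 with 1901 ± 73.8, ENO1 with 1171 ± 312, TDH1 with 580 ± 286 and PYK2 with 29.1 ± 5.47. The libraries of GPM1 and CDC19, of CDC19 and PGK1, and of ENO1 and TDH1 overlapped in level, and the other neighbours were separated. In stationary cultures without metformin the order was FBA1 with 2051 ± 357 CPM per kb (SD, n = 3), TDH3 with 883 ± 112, TDH1 with 641 ± 205, CDC19 with 613 ± 65.7, ENO1 with 348 ± 59, GPM1 with 266 ± 82.9, TDH2 with 133 ± 34.8, PGK1 with 130 ± 34.5, ENO2 with 52.9 ± 15 and PYK2 with 43.8 ± 13.4. There the libraries of TDH3 and TDH1, TDH1 and CDC19, ENO1 and GPM1, TDH2 and PGK1, and ENO2 and PYK2 overlapped in level. Among 6014 protein-coding genes ENO2 stood 7th in exponential and 1464th in stationary cultures without metformin, whereas TDH1 stood 210th and 84th.

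No difference with metformin was detected for a lower glycolysis transcript in either phase. In exponential cultures 0 of 10 members were called, against 0.0984% of all features, and their log2 fold changes ran from -0.12 for TDH1 to 0.00 for TDH3 and ENO2. In stationary cultures again 0 of 10 were called, against 0.0492% of all features, with log2 fold changes from -0.14 for CDC19 to 0.49 for TDH1. Calls were rare over all features as well, with 108 and 490 of 6097 at an unadjusted p under 0.05 in these comparisons, and DESeq2 also called 0 of 10. Chance gives about 1 in 20 features at that limit. The exponential count lay under this and the stationary count over it, and the reason was not tested. The low number of calls is therefore not evidence that metformin had no effect. For the abundant members the intervals were narrow: the 95% interval of the log2 fold change for TDH3 ran from -0.24 to 0.25 in exponential and from -0.26 to 0.3 in stationary cultures. For ENO2 it ran from -0.32 to 0.32 and from -0.13 to 0.62. For TDH1 it was wide, -1.13 to 0.89 and -0.68 to 1.65, which leaves room for changes of more than 2-fold. These intervals come from the fit without a replicate block. With a block inside each phase the SE of TDH1 in stationary cultures was smaller than the 0.54 of this fit, as given below. The interaction of metformin and phase was likewise called for 0 of 10 members, against 0.0164% of all features, with values from -0.13 for CDC19 to 0.6 (SE 0.72) for TDH1, and 338 features had an unadjusted p under 0.05.

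In stationary cultures the mixture of TDH copies was separated between doses. TDH1 shares of 47%, 47.1% and 45.4% with metformin all exceeded those of 33.1%, 39% and 42.2% without, a difference of 8.37 percentage points. The exact two-sided permutation test gave p = 0.1, the smallest that 3 against 3 libraries allow, and 0.143 after Benjamini-Hochberg adjustment over 20 comparisons, so the design could not pass the threshold. The shares of TDH3 (-7.59 points), TDH2 (-0.786 points) and ENO1 (-2.04 points) were also separated between the doses, with the same p. The TDH shares add up to the whole in each library, so the TDH3 and TDH2 differences together mirror that of TDH1. TDH1 levels themselves overlapped, at 466 to 866 CPM without and 803 to 996 CPM with metformin. With a replicate block inside each phase, which takes same-numbered libraries as pairs, the TDH1 log2 fold change was 0.53 (SE 0.17, edgeR adjusted p = 0.225) and 0 of 10 members were called.

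Replicate 3 of both exponential groups differed from the other 6 exponential libraries in a few members only. TDH1 at 154 and 164 CPM lay under the others at 502 to 886 CPM, and ENO1 at 930 and 934 CPM lay under 1474 to 2023 CPM. PYK2 at 34.9 and 36.6 CPM lay at the lower edge of the others, and the remaining 7 members overlapped them. Outside the members, hexokinase HXK1 at 176 and 197 CPM lay under 284 to 786 CPM and glucokinase GLK1 at 165 and 179 CPM under 192 to 334 CPM. The upper glycolysis genes HXK2, PGI1, PFK1, PFK2 and TPI1 overlapped the others. The stationary markers SPG1, SPG4 and HSP26 were also below the others in these libraries, SNZ1 was above them and HSP12 overlapped. Over all 5600 features with a mean of at least 1 CPM, 888 were below and 759 above the other 6 in both libraries, so these libraries stood apart well beyond glycolysis.

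**Figure D4:**
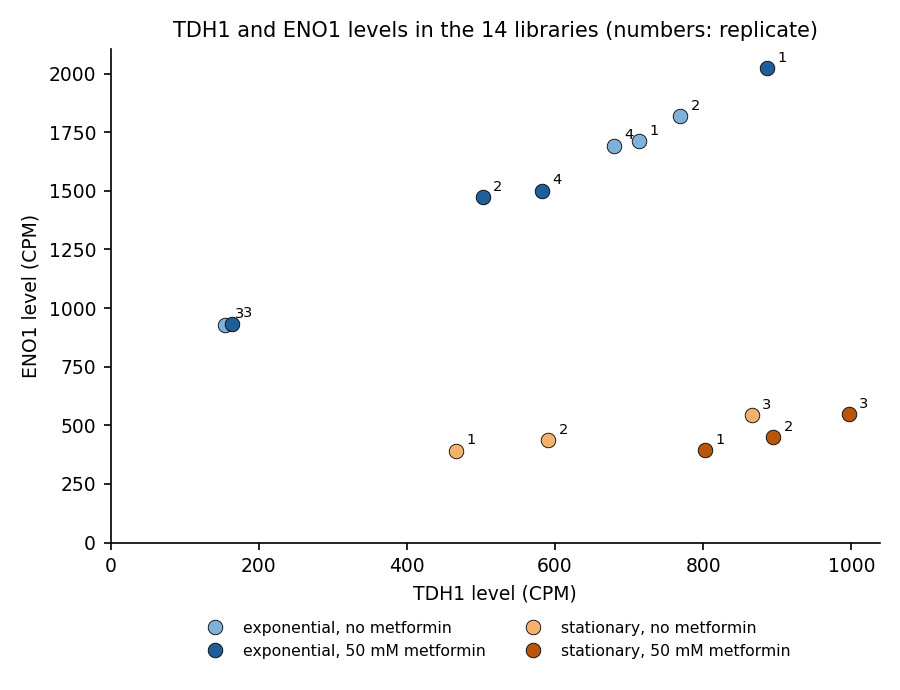
ENO1 level (vertical axis) against TDH1 level (horizontal axis) in the 14 libraries, both in TMM-scaled CPM, with the replicate number beside each point. The 8 exponential libraries (blue) fall along a line, with both replicates 3 at its lower end, and the stationary libraries (orange) lie below it with ENO1 between 392 and 549 CPM.

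Across the 8 exponential libraries TDH1 and ENO1 varied together. Pearson's r was 0.997 (exact permutation p = 2.48e-05, adjusted 0.00112 over the 45 pairs of members) and Spearman's rho was 1 (exact permutation p = 4.96e-05, adjusted 0.00223). Without the pair of libraries farthest from the TDH1 median, which were both replicates 3, r was 0.986 over 6 libraries. In stationary cultures the TDH1 count per ENO1 count was higher, at 1.19 to 1.59 without and 1.82 to 2.03 with metformin, against 0.165 to 0.438 in exponential libraries. Of the 45 pairs, 4 passed by Pearson's r, and the others were PGK1 with GPM1 (0.939), TDH2 with GPM1 (0.915) and TDH2 with PGK1 (0.912). By Spearman's rho PYK2 passed with both TDH1 and ENO1, each at 0.976 (exact permutation p = 0.000397, adjusted 0.00595). TDH2 with GPM1 (0.929) and PGK1 with GPM1 (0.905) passed as well. Pearson's r of PYK2 was 0.846 with TDH1 and 0.843 with ENO1 (exact permutation, adjusted p = 0.0671 for each). The TDH1 and ENO1 pair was singled out after its values were seen, and same-numbered libraries with and without metformin are not fully independent.

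Over all 14 libraries the features most like the summed level of the members by Pearson's r of log2 CPM were DPS1 (0.9995), RIM1 (0.9991), TPI1 (0.999), VMA2 (0.9989) and RPS8A (0.9989). Such likeness was common, since 2016 of 6087 features had r over 0.9. For TDH1 the nearest were EGO4 (0.9741), HSP30 (0.9601), AIM17 (0.9567), SSA4 (0.946) and GAD1 (0.9415), and only 17 of 6087 features had r over 0.9. Both exponential replicates 3, with TDH1 at 154 and 164 CPM, weigh heavily in these values. In both, 130 features lay below the other 6 exponential libraries and averaged under 0.5 times their mean. Likeness to TDH1 without these libraries was not tested. HSP30 and SSA4 encode heat shock proteins and GAD1 glutamate decarboxylase.

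The promoters were searched for the letters CTTCC, the core bound by Gcr1, and AGGGG, the stress response element bound by Msn2 and Msn4, on both strands of the 600 bases before each start codon. A match to one is never a match to the other, although neighbouring matches can share bases. CTTCC was found in 9 of the 10 members, all but TDH3, and in 72.9% of 5999 promoters of the same length. AGGGG was found in 6, namely TDH1, TDH3, PGK1, ENO1, CDC19 and PYK2, and in 39.7% of all promoters. A strict form of the Rap1 site was searched as well and was found in 0 of the 10 members and in 1.07% of all promoters. A missing match, as for Rap1 or for CTTCC in TDH3, says only that these letters are not in the window. For the pairs of copies that parted between phases, the bases from 550 to 311 before the start codon are printed 5′ to 3′ on the strand of the gene from RefSeq R64, with capitals for matches to CTTCC or AGGGG on either strand.
TDH3 (chrVII:884121-884360, minus strand): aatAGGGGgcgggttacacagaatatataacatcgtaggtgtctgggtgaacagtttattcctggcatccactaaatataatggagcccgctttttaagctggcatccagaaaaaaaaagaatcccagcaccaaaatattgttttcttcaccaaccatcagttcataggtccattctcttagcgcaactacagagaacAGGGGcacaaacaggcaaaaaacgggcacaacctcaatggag
TDH1 (chrX:337721-337960, plus strand): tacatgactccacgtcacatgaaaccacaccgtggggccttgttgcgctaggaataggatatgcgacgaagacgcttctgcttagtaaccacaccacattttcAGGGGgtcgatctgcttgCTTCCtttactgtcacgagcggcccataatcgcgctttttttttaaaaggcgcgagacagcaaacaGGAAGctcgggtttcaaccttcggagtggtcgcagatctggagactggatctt
ENO2 (chrVIII:450777-451016, plus strand): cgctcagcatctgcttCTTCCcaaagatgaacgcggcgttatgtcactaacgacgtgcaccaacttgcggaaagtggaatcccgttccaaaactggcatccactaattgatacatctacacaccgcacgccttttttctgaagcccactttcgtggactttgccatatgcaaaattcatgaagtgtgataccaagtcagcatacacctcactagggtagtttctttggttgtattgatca
ENO1 (chrVII:1000377-1000616, plus strand): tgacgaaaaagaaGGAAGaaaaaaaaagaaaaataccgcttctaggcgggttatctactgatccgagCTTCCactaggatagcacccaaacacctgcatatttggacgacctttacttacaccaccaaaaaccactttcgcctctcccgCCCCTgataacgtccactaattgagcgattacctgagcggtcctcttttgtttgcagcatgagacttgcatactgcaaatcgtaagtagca

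In these windows TDH3 held 2 AGGGG matches, at 547 and 352 bases before the start codon, and TDH1 held 1, at 447 bases, with CTTCC matches at 429 and 363 bases. ENO2 held a CTTCC match at 534 bases, and ENO1 held CTTCC matches at 537 and 483 bases and an AGGGG match at 401 bases. Over the full 600 bases ENO2 held 3 CTTCC matches and ENO1 2, while TDH3 held 3 AGGGG matches and TDH1 2. Those outside the printed windows lay nearer the start codon, at 170 and 94 bases for ENO2, 160 for TDH3 and 229 for TDH1. Part of the TDH1 window lies in the neighbouring open reading frame YJL052C-A. The matches are a description of the letters, and binding was not measured.

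The rest of central carbon metabolism gave a setting for these falls. In upper glycolysis 5 of 7 genes were lower in stationary cultures at both doses, against 42.2% of all features without and 41.8% with metformin. They were hexokinase HXK2 (log2 fold change -3.86, SE 0.18, without metformin), triose phosphate isomerase TPI1 (-3.38, SE 0.16), PGI1 (-2.23, SE 0.13), PFK1 (-1.32, SE 0.1) and PFK2 (-1.32, SE 0.1). Glucokinase GLK1 was higher (0.55, SE 0.22, edgeR adjusted p = 0.0316), but stood at -0.49 with library totals and 0.53 from their median, and HXK1 was not called (-0.78, SE 0.42, edgeR adjusted p = 0.0994). With library totals HXK1 was called lower at -1.82 (edgeR adjusted p = 0.000253), and it stood at -0.8 from their median. The median of the list was -1.32 without metformin, against -3.33 for the lower pathway.

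Alcoholic fermentation, the route from pyruvate to ethanol, had 3 genes lower and 2 higher of 5 at both doses, near the shares of all features called lower (42.2% and 41.8%) and higher (42.4% and 40.8%). PDC5 fell 200-fold (log2 fold change -7.64, SE 0.27, without metformin), PDC1, which is the RFP-tagged gene of this strain, changed by -3.64 (SE 0.31) and alcohol dehydrogenase ADH1 by -3.34 (SE 0.13). ADH2, the ethanol-oxidising enzyme repressed by glucose, rose by 7.36 (SE 0.21) and PDC6 by 6.34 (SE 0.29). Of the 5 genes that bypass the one-way steps in gluconeogenesis, 4 were higher at both doses, against 42.4% of all features without and 40.8% with metformin. PCK1, phosphoenolpyruvate carboxykinase, rose by 6.95 (SE 0.27) without metformin, FBP1, fructose bisphosphatase, by 5.54 (SE 0.26), MDH2 by 3.83 (SE 0.3) and PYC1 by 2.58 (SE 0.15), while PYC2 changed by -2.04 (SE 0.1).

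Transcripts of 6 regulators gave log2 fold changes from -0.59 to 1.19 without metformin. GCR1 was lower at both doses (log2 fold change -0.59, SE 0.12, without metformin) and GCR2, which encodes its partner, was higher (1.19, SE 0.07). With library totals GCR2 stood at 0.15 without and 0.02 with metformin, and was not called. From their median it stood at 1.17 and 1.24. TYE7 was called lower without metformin (-0.44, SE 0.14) and not with it (-0.17, SE 0.13), and ABF1 was called higher with metformin (0.42, SE 0.12) and not without it (0.26, SE 0.12), and turned to -0.78 and -0.79 with library totals. The interaction of metformin and phase was not called for either. RAP1 (-0.09, SE 0.12) and REB1 (-0.04, SE 0.09) were not called. With library totals RAP1 stood at -1.13 and REB1 at -1.08 without metformin, and TYE7 at -1.34 with it, each called lower. From the median of all features these stood at -0.11, -0.06 and -0.12. Among distant relatives, the mutase-like genes GPM2 (-0.87, SE 0.28) and GPM3 (-1.65, SE 0.12) were lower. Without metformin GPM2 overlapped between phases, with 8.96 CPM in exponential replicate 3 and up to 10.1 CPM in stationary cultures. The enolase-related genes ERR1, ERR2 and ERR3, near-identical copies whose counts are uncertain, were called higher at both doses. ERR2 had 4, 1, 3 and 2 counts in exponential and 297, 229 and 214 in stationary libraries without metformin. Metformin changed no gene of these 5 lists past the threshold in either phase.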

How the data were processed

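RNA left after ribosomal depletion was sequenced in 14 directional libraries, per the labels' protocols. The authors deposited 1 table of raw counts per gene or other feature. Of the tools, STAR, SAMtools and HTSeq appear in the submitters' processing notes; their versions, the genome build, the annotation and the strand setting were not stated there. All 6470 locus tags matched RefSeq R64, which gave names, positions and sequences. The 5 summary rows, 6.12% to 10.1% of reads, stayed out of library sizes and tests, and 0 columns of samples were left unused.

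Features were kept by filterByExpr (minimum count 10, minimum total 15) and scaled by TMM. The quasi-likelihood test of edgeR 4.0.16 (R 4.3.3) was run on all 4 groups together, without a replicate block, and standard errors and intervals were derived from the test statistic. Paralog shares and summed levels were tested by exact permutation with SciPy 1.17.1. Alternatives were DESeq2 1.42.0, limma 3.58.1 with voom, other scalings, no filter, fits of the groups compared, a replicate block and each library left out. On simulated counts, 62.7% of 1.5-fold and 95.5% of 2-fold changes were recovered among 5940 genes for the phases without metformin, and 53.7% and 94% among 5960 for metformin in stationary cultures. The simulation changed 200 genes, fitted only the groups compared and held no shift in the non-coding share. In the data 5159 of 6097 features were called between phases without metformin, so these rates do not measure recovery between phases.

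Titles give the same replicate numbers in each group, but the columns of stationary replicate 3 are numbered 5. Within a phase, deviations of same-numbered libraries correlated at 0.103 to 0.624 in exponential and 0.136 to 0.467 in stationary cultures, every pair over 0.1, while between phases without metformin they were -0.059 to -0.033. Between phases with metformin they were 0.151 to 0.261, every pair over 0.1. Some differently numbered libraries matched better: exponential replicate 2 without metformin correlated at 0.525 with replicate 1 with metformin, against 0.103 for replicate 2. Stationary replicate 1 without metformin correlated at 0.35 with replicate 2 with metformin, against 0.259 for replicate 1. Exponential replicate 4 without metformin also passed 0.1 with replicate 1 with metformin, at 0.149. Whether same-numbered libraries are pairs is therefore not settled by these values. The main fit took no libraries as pairs, and fits with a replicate block are given as alternatives. All libraries carry the same batch label. The members, gene lists and named-gene rule were chosen with earlier results of these data known. The rule takes all 10 members, list genes that passed and up to 4 others per list, and the 5 features most correlated with the summed members and with TDH1. Any other gene was chosen after its values were seen.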

Additional observations from a re-analysis of the deposited data

Results flagged for a closer look

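Among 32 groups of 4 libraries examined (levels, shares and the summed level), a single library stood apart from its group by Dixon's criterion in 4, and chance gives about 1 in 20. TDH1 in exponential replicate 3 without metformin was 154 CPM, against 679.6 to 768.8 CPM in the other 3 libraries. ENO1 in the same library was 930 CPM, against 1693 to 1818 CPM. The TDH1 share of TDH counts in that library was 1.07%, against 4.671% to 5.305%. The share is taken from the TDH1 counts, and TDH1 and ENO1 varied together. The 4 flags are therefore not separate events to be set against the rate of 1 in 20. PGK1 in exponential replicate 1 without metformin was 5553 CPM, against 5003 to 5086 CPM. Replicate 3 with metformin had similarly low TDH1 and ENO1 levels, 164 and 934 CPM, but did not meet the criterion; the other libraries of its group ran from 502 to 886 CPM and from 1474 to 2023 CPM.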

How the results depend on the processing

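The 8 members called lower in stationary phase stayed lower and called under every alternative, and the number of members called was 8 or 9 between phases and 0 for metformin and for the interaction. The replicate block numbered as in the titles called 9 of 10 members in both phase comparisons and 0 for metformin, which changed no count of members; the adjusted p of the exact paired sign-flip test for the TDH1 share between phases was then 0.357, with too few pairs to pass. Within each phase the block, chosen after seeing the data, called 4 of all features in exponential and 10 in stationary cultures, against 6 and 3 without it. DESeq2 called 47 features for metformin in stationary cultures and 15 for the interaction (main 3 and 1), limma-voom 7 and 1, library totals 5 and 2, and the 2 groups alone 0. Library totals gave the phases 1065 higher and 4019 lower features without metformin and 822 and 4292 with it, against 2585 and 2574 and 2490 and 2546. With them TDH1 was -0.9 and -0.45 and PYK2 -0.44 and -0.67 (adjusted p = 0.0158) between phases. For metformin they turned small values: CDC19 0.02 in exponential cultures; TDH2 -0.09, TDH3 -0.14, GPM1 -0.04 and ENO1 -0.14 in stationary cultures; and for the interaction TDH2 -0.07, TDH3 -0.17, GPM1 -0.03 and ENO1 -0.1. TDH3 in stationary cultures was -0.01 with the 2 groups alone. Without both exponential replicates 3, TDH1 was -0.16 between phases without metformin, CDC19 0.01 for metformin and TDH3 -0.01 for the interaction. The summed level differed by -0.0517 points (exponential) and 0.0145 points (stationary) with TMM scaling and by -0.0233 without the 10 highest other features, where the main differences were 0.0196 and -0.0308. Leaving out each library in turn, log2 fold changes that crossed 0 ranged as follows: TDH1 -0.17 to 0.32 between phases without metformin; in exponential cultures TDH3 -0.03 to 0.02, ENO2 -0.03 to 0.03, PYK2 -0.18 to 0.1, CDC19 -0.05 to 0.02, TDH1 -0.48 to 0.17 and ENO1 -0.24 to 0.1; in stationary cultures FBA1 -0.16 to 0.08, TDH2 -0.05 to 0.29, TDH3 -0.1 to 0.13, GPM1 -0.02 to 0.41, ENO1 -0.11 to 0.17 and PYK2 -0.3 to 0.1. For the interaction FBA1 ranged from -0.11 to 0.13, TDH2 -0.02 to 0.33, TDH3 -0.11 to 0.13, ENO1 -0.1 to 0.26 and PYK2 -0.3 to 0.11. Metformin differences in share ranged in exponential cultures from -1.34 to 0.457 points for TDH1, -0.343 to 1.8 for TDH3, -2.44 to 0.939 for ENO1 and -0.0716 to 0.0484 for PYK2, and in stationary cultures from -1.22 to 1.07 for PYK2. The summed level ranged from -0.0578 to 0.107 and from -0.0634 to 0.00636. The cause of these changes was not tested.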
